A study of Homo sapiens with 8 samples.

Results

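The miRNAs described here are the kidney tubule miRNAs miR-192, miR-194, miR-215 and miR-204. They are 7 mature miRNAs of the 3112 in the count table, namely hsa-miR-192-5p, hsa-miR-192-3p, hsa-miR-194-5p, hsa-miR-194-3p, hsa-miR-215-5p, hsa-miR-215-3p and hsa-miR-204-5p, written below without the species prefix. They were chosen by name and not by a measured value, though with earlier results of these data known. All 7 are among the 1482 known miRNAs of the table, and the other 1630 entries are miRNAs predicted by the authors. Small RNA was sequenced from 786O cells, a long-used human ccRCC (clear cell renal cell carcinoma) line that lacks functional VHL. There were 4 negative control (NC) samples and 4 circSOD2-sh samples, in which an shRNA targets circSOD2, a circular RNA of the SOD2 gene. Per the labels, the circSOD2-sh plasmid or the control plasmid was introduced with a Lipofectamine reagent and RNA was taken after 48 h, whereas the study's methods describe lentiviral knockdown with puromycin selection. Which shRNA was used is not named, circSOD2 itself was not analysed here, and both groups come from a single cell line. The labels do not say whether samples of a group came from separate cultures, so the p-values measure the spread between these samples, which may be technical.

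A miRNA is cut from a hairpin precursor as a 5p and a 3p arm, and usually only a single arm is kept by the silencing complex. Bases 2 to 8 of the mature miRNA, the seed, select the mRNAs that it represses. miR-192 and miR-194 are transcribed together from chromosome 11, and miR-215 and another copy of miR-194 from chromosome 1. These clusters are abundant in kidney tubules, intestine and liver, and p53 can induce them. miR-204 lies in an intron of TRPM3 and is known in kidney, retina and choroid plexus. In ccRCC it is known as a VHL-linked tumour suppressor that limits autophagy.

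The mature sequences were taken from RefSeq (GRCh38.p14), which held all 7 miRNAs, and are shown because the seed groups the members. The seed is in capitals. miR-211-5p is added as the seed relative of miR-204-5p.
miR-192-5p: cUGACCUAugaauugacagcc
miR-215-5p: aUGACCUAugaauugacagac
miR-194-5p: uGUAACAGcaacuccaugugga
miR-204-5p: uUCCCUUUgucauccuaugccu
miR-211-5p: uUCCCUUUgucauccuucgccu
miR-192-3p: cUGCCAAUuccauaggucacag
miR-194-3p: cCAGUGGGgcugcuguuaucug
miR-215-3p: uCUGUCAUuucuuuaggccaaua
miR-192-5p and miR-215-5p share the seed UGACCUA and differ at 2 of 21 positions, counted from the 5′ end of miR-192-5p, as C1A and C20A. Reads of these miRNAs that miss the first base therefore differ at a single position, and how the authors assigned such reads is not given in the sources used here. miR-204-5p and miR-211-5p share the seed UCCCUUU and differ at 2 of 22 positions, A17U and U18C counted from the 5′ end of miR-204-5p. miR-194-5p shares its seed with no other mature miRNA of the RefSeq table, and neither do the 3p arms.

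The precursors show which arms and which copies the counts can tell apart. They are given in the sense of the transcript (minus strand of GRCh38.p14), with the listed mature arms in capitals.
MIR192: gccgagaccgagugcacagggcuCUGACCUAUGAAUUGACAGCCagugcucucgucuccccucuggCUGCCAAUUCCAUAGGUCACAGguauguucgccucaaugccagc
MIR194-2: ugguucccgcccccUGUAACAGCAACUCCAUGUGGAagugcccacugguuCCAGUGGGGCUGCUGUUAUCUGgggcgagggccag
MIR215: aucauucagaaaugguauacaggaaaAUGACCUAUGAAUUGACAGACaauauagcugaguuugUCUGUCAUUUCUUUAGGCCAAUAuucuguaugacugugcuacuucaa
MIR194-1: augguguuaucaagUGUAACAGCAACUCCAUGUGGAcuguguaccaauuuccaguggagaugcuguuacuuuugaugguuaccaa
MIR204: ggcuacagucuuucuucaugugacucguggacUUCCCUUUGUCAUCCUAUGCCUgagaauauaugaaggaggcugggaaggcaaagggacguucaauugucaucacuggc
MIR192 lies at chr11:64891137-64891246 and MIR194-2 at chr11:64891355-64891439, with 108 bases between them. Both are within an exon of the non-coding gene MIR194-2HG on the same strand. MIR215 lies at chr1:220117853-220117962 and MIR194-1 at chr1:220118157-220118241 in an intron of IARS2 on the opposite strand. MIR204 lies at chr9:70809975-70810084 in an intron of TRPM3 on the same strand. Both miR-194 hairpins release the same miR-194-5p, so its counts cannot be assigned to chromosome 11 or chromosome 1, whereas the miR-194-3p of the table is in MIR194-2 only.

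Known miRNAs and predicted miRNAs were divided very unequally between the groups, and this decides how the members can be compared. NC libraries held 6386872 to 9245044 counts (median 8483966), of which 36.2% to 41.9% fell on known miRNAs. circSOD2-sh libraries held 3743860 to 4208276 counts (median 3946410), of which 95.1% to 96.5% fell on known miRNAs. Counts were therefore scaled by TMM, which sets library totals so that the trimmed mean of the log ratios of all miRNAs is 0, and levels are given as CPM of the scaled totals (normalized CPM). A level of 3 counts, taken as the floor, equalled 0.46 to 0.674 normalized CPM in the NC libraries and 0.509 to 0.601 in the circSOD2-sh libraries. With edgeR's quasi-likelihood test on 895 miRNAs, 588 (65.7%) had an adjusted p under 0.05, with 298 (33.3%) higher and 290 (32.4%) lower in circSOD2-sh. Scaled by library totals, 771 (86.1%) were called, with 613 (68.5%) higher and 158 (17.7%) lower. For 540 of the 895 (60.3%) the NC and circSOD2-sh ranges of normalized CPM were separate. A member that passes this test thus does what most of the 895 miRNAs tested did, in either direction. Without a low-count filter, 655 of 3112 miRNAs (21.0%) were called. Over all miRNAs tested, the median log2 fold change was -0.0022 with TMM and 0.961 with library totals. The part of this imbalance in the values of the members was not tested.

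Before the group comparison, 2 libraries have to be named. NC replicate 4, the NC library with the fewest counts, was higher than every other NC library for miR-192-5p, miR-194-5p, miR-215-5p and miR-204-5p. circSOD2-sh replicate 2 was far higher than every other circSOD2-sh library for miR-204-5p. The levels and ratios of the members are therefore given with and without both libraries. Both were named as raised when the members were chosen, so p-values without them are descriptions.

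miR-192-5p, the most abundant member, was lower in circSOD2-sh than in NC. Its counts were 2182, 2322, 2116 and 4238 in NC replicates 1 to 4 and 1581, 1596, 1374 and 1527 in circSOD2-sh replicates 1 to 4. In normalized CPM these were 334, 357, 360 and 952 in NC and 268, 281, 275 and 271 in circSOD2-sh. The 4 circSOD2-sh libraries lay close together and below every NC library, and NC replicate 4 stood apart from the other NC libraries. The mean was 501 ± 301 normalized CPM in NC and 274 ± 5.65 in circSOD2-sh (SD, n = 4 each), with an exact two-sided permutation p of 0.0286, the smallest that 4 against 4 libraries can give. The log2 fold change was -0.87 with a standard error of 0.32 (edgeR's quasi-likelihood test, Benjamini-Hochberg adjusted p = 0.035). As these are bulk samples, fewer cells that express a miRNA and less of it per cell cannot be told apart.

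Without NC replicate 4 and circSOD2-sh replicate 2, the difference in miR-192-5p was smaller and its error was smaller still. The mean was 351 ± 14.2 normalized CPM in NC and 272 ± 3.5 in circSOD2-sh (SD, n = 3 each), and the groups did not overlap. Both libraries had been named as raised for some members beforehand, so the smaller error and p-value below follow in part from leaving them out. The log2 fold change was -0.47 with a standard error of 0.09 (edgeR, adjusted p = 0.000606), in a fit where 659 of 945 miRNAs (69.7%) were called, 309 (32.7%) higher and 350 (37.0%) lower. With known miRNAs only and the same libraries left out it was -0.22 (edgeR, adjusted p = 0.0046). Without NC replicate 4 alone it was -0.40 (edgeR, adjusted p = 0.00337). When known miRNAs alone were fitted with all libraries it was -0.83, and the threshold was not passed (edgeR, adjusted p = 0.0749). With the replicate number as a block it was -0.70 and did not pass (edgeR, adjusted p = 0.0602), though the numbers were not taken as pairs.

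The direction of miR-192-5p depended on what its counts were divided by. As CPM of all listed counts, the NC libraries had 236, 259, 264 and 664 and the circSOD2-sh libraries 398, 379, 367 and 389, so that 3 NC libraries lay below and NC replicate 4 above all circSOD2-sh libraries. As CPM of the known counts alone, the NC libraries had 652, 650, 631 and 1810 and the circSOD2-sh libraries 419, 393, 381 and 407. On that scale every NC library was above every circSOD2-sh library. Scaled by library totals instead of TMM, its log2 fold change was 0.11 (edgeR, adjusted p = 0.738), and 0.60 without both named libraries (edgeR, adjusted p = 6.58e-05). Relative to the median of all tested miRNAs, miR-192-5p was at -0.87 with TMM and at -0.85 with library totals. Without both named libraries it was at -0.34 on each scale, and without NC replicate 4 alone at -0.47 with TMM. It was thus below the median tested miRNA, while its own sign differed. A change of scaling moves all miRNAs by nearly the same amount, so values relative to the median are alike on both scales by construction.

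**Figure D1:**
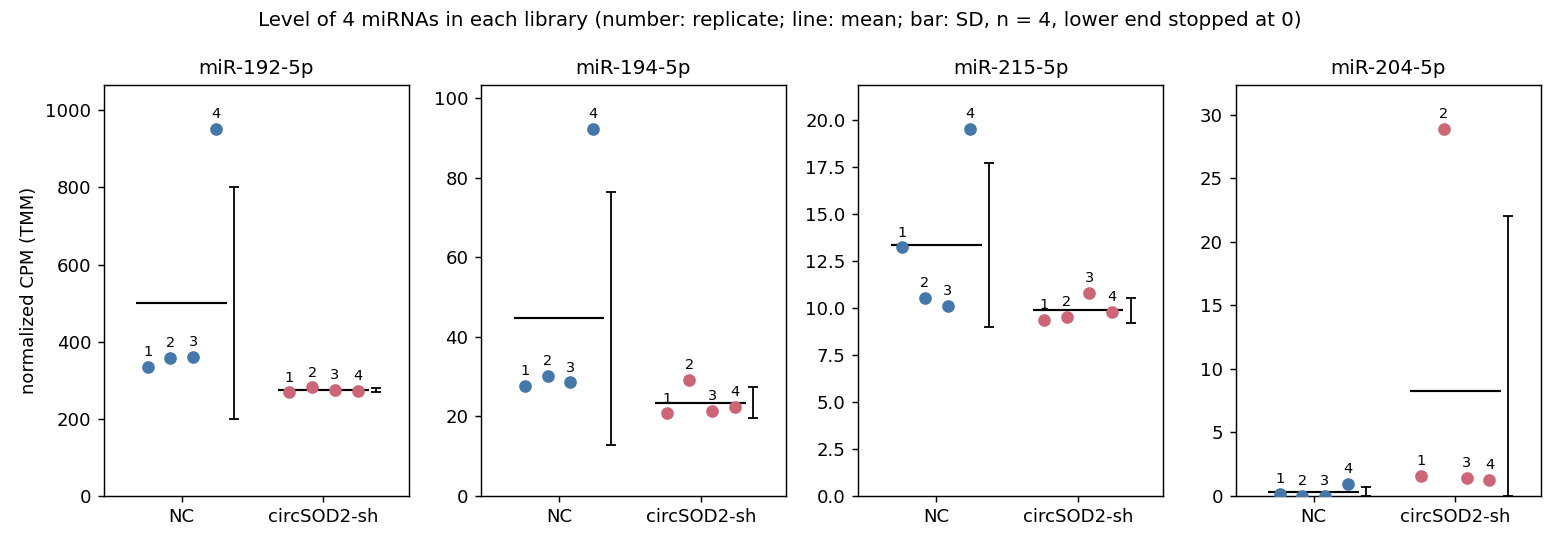
Level of miR-192-5p, miR-194-5p, miR-215-5p and miR-204-5p in each library, in normalized CPM on a linear axis of its own in each panel, with the replicate number at each point, the group mean as a line and the SD (n = 4) as a bar. NC replicate 4 is the highest library for miR-192-5p (952), miR-194-5p (92.3) and miR-215-5p (19.5), and circSOD2-sh replicate 2 is the highest for miR-204-5p (28.9).

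miR-194-5p, which is released by both clusters, had lower values in circSOD2-sh, close to the threshold with all libraries. Its counts were 180, 196, 167 and 411 in NC and 122, 165, 107 and 126 in circSOD2-sh. In normalized CPM these were 27.6, 30.1, 28.5 and 92.3 in NC and 20.7, 29.1, 21.4 and 22.4 in circSOD2-sh. The groups overlapped through circSOD2-sh replicate 2, which lay within the range of the NC libraries. The mean was 44.6 ± 31.8 in NC and 23.4 ± 3.85 in circSOD2-sh (SD, n = 4 each; exact two-sided permutation p = 0.0857). The log2 fold change was -0.92 with a standard error of 0.39 (edgeR, adjusted p = 0.0618). The threshold was passed with RLE size factors (edgeR, adjusted p = 0.0427), with DESeq2 (adjusted p = 0.00987), without a low-count filter (edgeR, adjusted p = 0.0144) and with 6 of 8 TMM references (adjusted p from 0.0328). It was not passed with known miRNAs only (-0.89, edgeR, adjusted p = 0.106) or a mean of at least 50 counts (-0.87, edgeR, adjusted p = 0.0739). With the replicate number as a block the value was -0.72 and did not pass either (edgeR, adjusted p = 0.111).

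The SD of miR-194-5p fell to 1.3 in NC and 0.839 in circSOD2-sh when both named libraries were left out. The means were then 28.7 and 21.5 normalized CPM (n = 3 each) and the groups did not overlap. The libraries left out were the highest of their groups for miR-194-5p, so the lower SD and the separation follow in part from that choice. The call below is thus a description. The log2 fold change was -0.52 with a standard error of 0.13 (edgeR, adjusted p = 0.00493). With known miRNAs only and the same libraries left out it was -0.27 and did not pass the threshold (edgeR, adjusted p = 0.0505). Without NC replicate 4 alone it was -0.34 (edgeR, adjusted p = 0.0872), and leaving out NC replicate 1, 2 or 3 or circSOD2-sh replicate 2 alone gave -1.15 to -1.13 with adjusted p between 0.0313 and 0.0427. With library totals the log2 fold change was 0.05 with all libraries (edgeR, adjusted p = 0.899), and 0.56 without both libraries (edgeR, adjusted p = 0.00249), so that the sign again followed the scaling.

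miR-215-5p, which carries the seed of miR-192-5p, was a low member and did not pass the test with TMM. Its counts were 86, 68, 59 and 87 in NC and 55, 54, 54 and 55 in circSOD2-sh. In normalized CPM these were 13.2, 10.5, 10.1 and 19.5 in NC and 9.34, 9.52, 10.8 and 9.77 in circSOD2-sh. The groups overlapped, since circSOD2-sh replicate 3 was above NC replicates 2 and 3. The mean was 13.3 ± 4.38 in NC and 9.87 ± 0.664 in circSOD2-sh (SD, n = 4 each; exact two-sided permutation p = 0.114). The log2 fold change was -0.42 with a standard error of 0.22 (edgeR, adjusted p = 0.12). It was -0.24 without NC replicate 4 (edgeR, adjusted p = 0.265) and -0.28 without both named libraries (edgeR, adjusted p = 0.211). With known miRNAs only and the same libraries left out it was -0.03 (edgeR, adjusted p = 0.892). Without circSOD2-sh replicate 3 it was -0.61 (edgeR, adjusted p = 0.0456). With library totals the sign turned and the threshold was passed, with a log2 fold change of 0.55 (edgeR, adjusted p = 0.0344).

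Among the 7 members, then, 3 passed the low-count filter. With TMM and its default reference, 1 of these 3 passed the test, in the lower direction, beside 32.4% lower among all miRNAs tested. Both named libraries were known to be raised for some members, so counts without them are a description. Without both, 2 of these 3 were lower, beside 37.0% of all miRNAs tested. miR-204-5p then passed the filter as well, but only through circSOD2-sh, where it is high, so it is not counted here. With all libraries the median log2 fold change of the 3 members was -0.87, beside -0.0022 over all miRNAs tested. Without both named libraries miR-192-5p, miR-194-5p and miR-215-5p were at -0.47, -0.52 and -0.28, beside a median of -0.131 over all miRNAs tested. With library totals and all libraries none was lower and 1 was higher, beside 17.7% and 68.5% of all miRNAs, and the median was 0.11, beside 0.961. With library totals and without both named libraries all 3 were higher, beside 647 of 945 miRNAs tested.

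**Figure D2:**
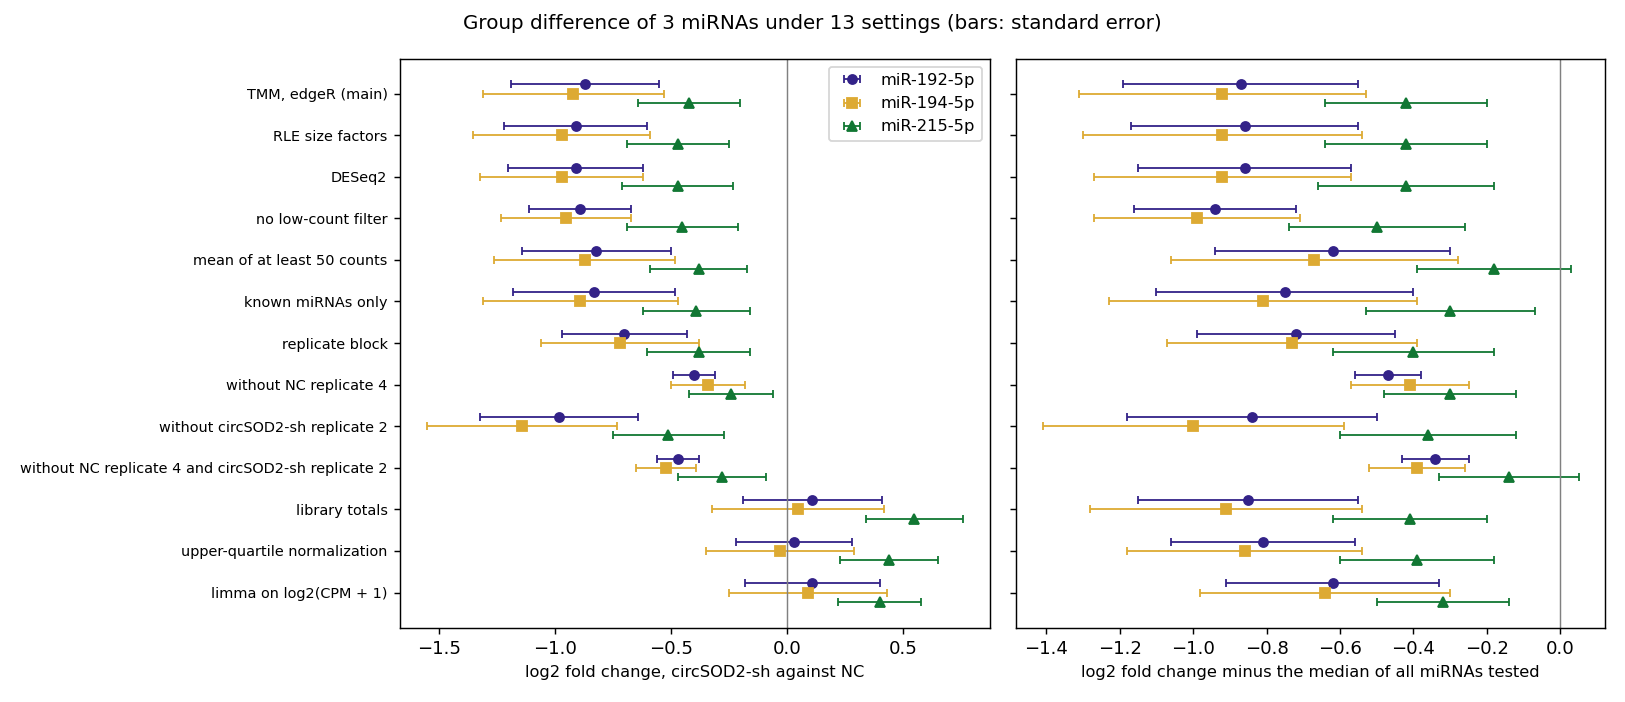
Log2 fold change of miR-192-5p, miR-194-5p and miR-215-5p, circSOD2-sh against NC, under 13 settings of the fit (left), and the same after subtracting the median of all miRNAs tested (right), with standard errors as bars. The values of miR-192-5p run from -0.98 to -0.40 in the upper settings. They lie at 0.03 to 0.11 with library totals, upper-quartile normalization and limma on CPM. Every point of the right panel is below 0, but subtracting the median removes most of the effect of the scaling by construction.

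Ratios between members within a library do not depend on the scaling. miR-192-5p over miR-194-5p was 12.1, 11.8, 12.7 and 10.3 in NC and 13, 9.67, 12.8 and 12.1 in circSOD2-sh. The exact 95% intervals, which cover counting error only since amplified reads are not independent molecules, were 9.32 to 11.4 in NC replicate 4 and 8.24 to 11.4 in circSOD2-sh replicate 2. The lowest values were those of these libraries, and the groups overlapped. The mean log2 ratio was 3.55 ± 0.13 in NC and 3.56 ± 0.20 in circSOD2-sh (SD, n = 4 each), a difference of 0.01 (exact permutation p = 0.83), and of 0.05 without both named libraries. The ratio was thus somewhat lower in NC replicate 4 than in the other NC libraries, at 10.3 against 11.8 to 12.7, and both miRNAs were higher there. Its interval overlapped those of NC replicates 1 (10.4 to 14.2), 2 (10.2 to 13.8) and 3 (10.8 to 14.9).

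miR-192-5p over miR-215-5p was 25.4, 34.1, 35.9 and 48.7 in NC and 28.7, 29.6, 25.4 and 27.8 in circSOD2-sh. The interval of NC replicate 4, 39.4 to 60.9, lay above that of NC replicate 1, 20.5 to 31.9, but overlapped those of NC replicates 2 (26.8 to 44.1) and 3 (27.7 to 47.3). The mean log2 ratio was 0.33 lower in circSOD2-sh, with 5.13 ± 0.38 in NC and 4.80 ± 0.10 in circSOD2-sh (SD, n = 4 each; exact permutation p = 0.143, 0.429 after Benjamini-Hochberg adjustment over 3 ratios). miR-194-5p over miR-215-5p was 2.09, 2.88, 2.83 and 4.72 in NC and 2.22, 3.06, 1.98 and 2.29 in circSOD2-sh. Its means differed by 0.35 on the log2 scale, with 1.58 ± 0.49 in NC and 1.24 ± 0.27 in circSOD2-sh (SD, n = 4 each; exact permutation p = 0.343, adjusted 0.515). Without both named libraries the differences were -0.21 for miR-192-5p and -0.25 for miR-194-5p over miR-215-5p. NC replicate 4 had the highest value of both ratios to miR-215-5p.

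**Figure D3:**
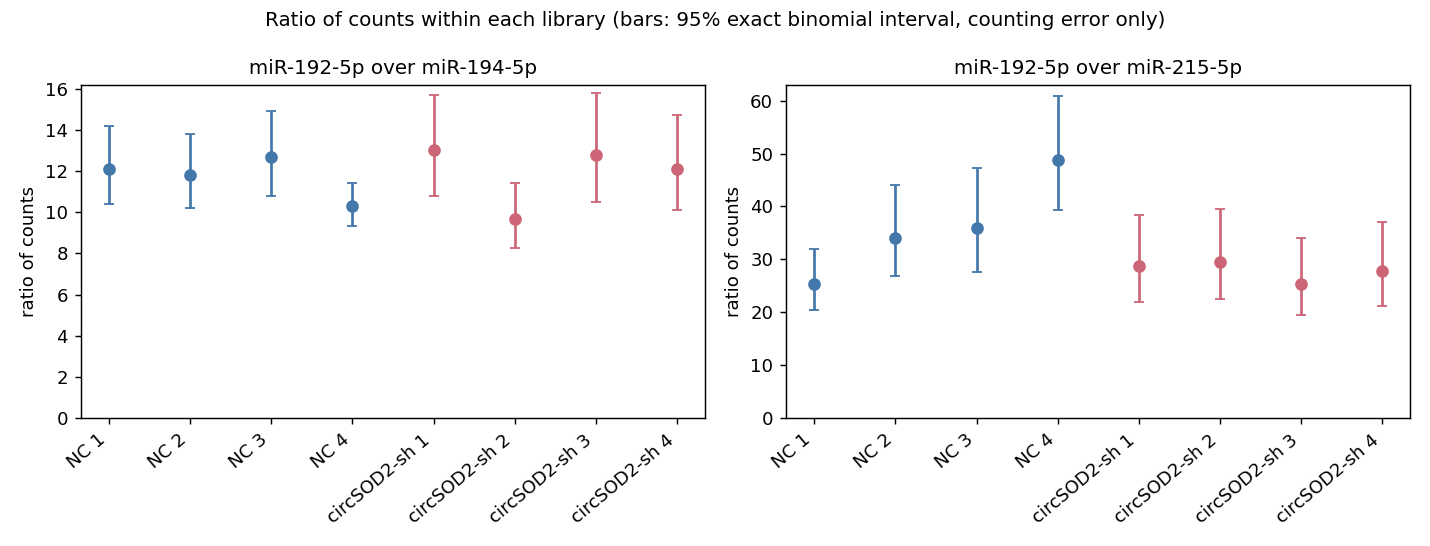
Ratio of counts of miR-192-5p to miR-194-5p (left) and to miR-215-5p (right) in each of the 8 libraries, with exact 95% binomial intervals that cover counting error only. The ratio to miR-194-5p stays between 9.67 and 13, and the ratio to miR-215-5p reaches 48.7 in NC replicate 4 and lies at 25.4 to 35.9 elsewhere.

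Compared to the group difference, the excess of NC replicate 4 was larger. It was 2.66 times the median of the other NC libraries for miR-192-5p, 3.24 times for miR-194-5p and 1.87 times for miR-215-5p. With library totals these were 2.56, 3.09 and 1.80 times. The TMM factors of the NC libraries were 0.697 to 0.733, so these scalings could hardly differ within NC. circSOD2-sh replicate 2 was at 1.04, 1.36 and 0.974 times the median of its group without it for the same miRNAs. These 3 miRNAs were thus raised in NC replicate 4 and not in the same way in circSOD2-sh replicate 2, where miR-204-5p was raised instead.

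Markers of other cell types were raised in the same library, and their part in the values of the members was not tested. The sum of the 7 stroma markers was 758 normalized CPM in NC replicate 4, and 14.8 to 17.9 in the other NC libraries, with 7 of 7 more than 2 times the highest of those libraries, the cut used for each list below. Most of this was miR-143-3p, abundant in smooth muscle and fibroblasts, at 495 against 6.46 to 7.84. The 5 erythroid markers summed to 172 against 26.7 to 42.8, with 4 of 5 above 2 times and 447 counts of miR-451a, the miRNA of red blood cells. The 6 leukocyte markers summed to 17.1 against 1.19 to 2.15, but only 2 of 6 were above 2 times, and miR-223-3p, miR-223-5p and miR-150-3p had 0 counts. The 2 endothelium markers summed to 650 against 334 to 348, with 1 of 2 above 2 times, and miR-126-3p was at 492 against 228 to 241. The muscle markers summed to 47.4 against 9.37 to 15.7, with 3 of 4 listed above 2 times and miR-206 at 24.3. miR-1-3p, the most abundant of them over all libraries, was not raised, at 6.74 against 7.5 to 11.5.

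Liver and gut, the other tissues known for miR-192 and miR-194, were examined as well. The liver markers summed to 5.39 normalized CPM in NC replicate 4 and to 3.75 to 5.82 in the other NC libraries, with none above 2 times. As miR-122-3p and miR-885-5p had 0 counts in every NC library, the sum is that of miR-122-5p alone. miR-122-5p, the defining liver miRNA, was at 5.39 there, within the range of the other NC libraries. The gut and endocrine markers summed to 11.7 against 3.22 to 5.23, with 1 of 3 above 2 times. The neural markers were not raised in this library, at 523 against 520 to 557. The 14 renal epithelium miRNAs summed to 79600 in NC replicate 4, within the 73700 to 87000 of the other NC libraries, although 4 of the 14 were above 2 times the highest of these.

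**Figure D4:**
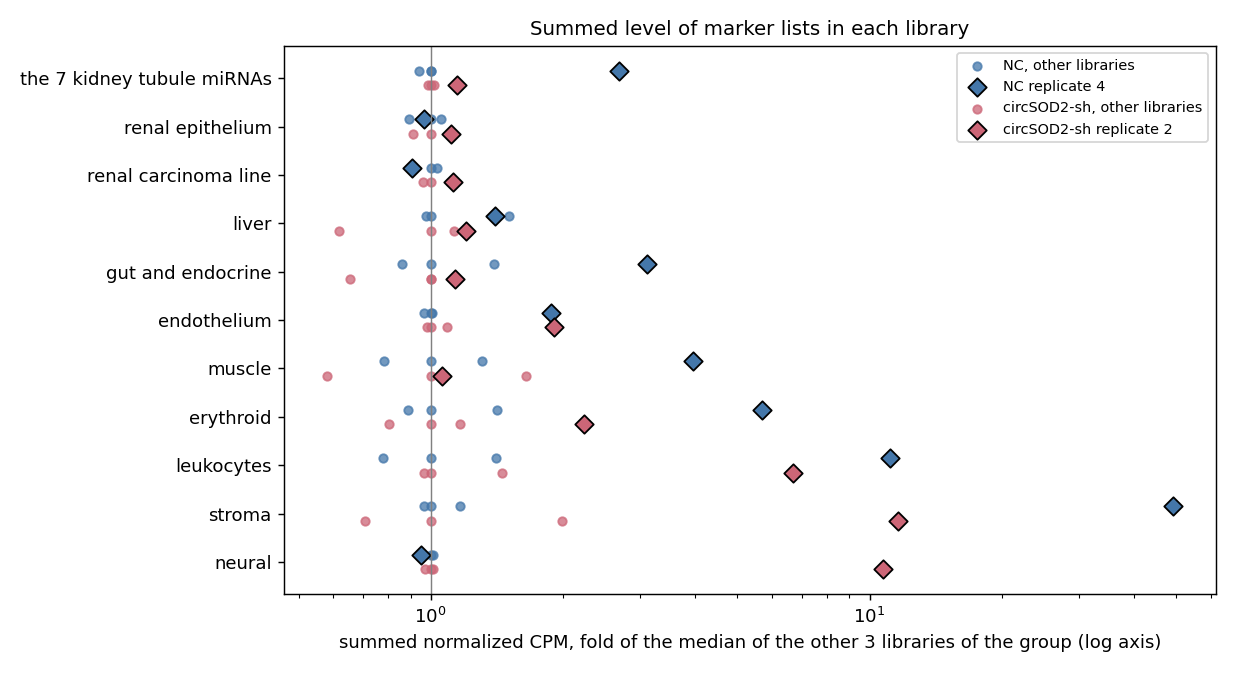
Summed normalized CPM of the 7 tubule miRNAs and of 10 marker lists (the p53-linked list is not plotted) in each library, as fold of the median of the other 3 libraries of the group (log axis), with NC replicate 4 and circSOD2-sh replicate 2 as diamonds. NC replicate 4 is raised for the 7 miRNAs and for stroma, leukocyte, erythroid, muscle, gut and endocrine and endothelium markers, whereas circSOD2-sh replicate 2 is raised for stroma, neural, leukocyte, erythroid and endothelium markers.

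Which miRNAs followed miR-192-5p most closely was described over the 8 libraries for 477 known miRNAs with a mean of at least 10 counts, as Pearson's r of log2(normalized CPM + 1). Outside the members these were miR-10b-5p (r = 0.98), miR-10b-3p (0.957), miR-486-5p (0.95), miR-206 (0.95) and miR-200c-3p (0.944). Among the members r was 0.98 for miR-194-5p and 0.918 for miR-215-5p. All points share NC replicate 4, and over the 6 libraries without both named libraries r was 0.777, 0.727, 0.861, 0.277 and 0.896 for the 5 miRNAs, 0.98 for miR-194-5p and 0.382 for miR-215-5p. The likeness of miR-206, a skeletal muscle miRNA with 24.3 normalized CPM in NC replicate 4 and at most 0.353 elsewhere, and of miR-215-5p thus rested on the libraries left out. miR-194-5p, the cluster partner, kept its r, but without both named libraries the groups did not overlap for miR-192-5p or for miR-194-5p. This r thus includes the group difference, and co-variation within a group was not tested.

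miR-204-5p went the other way and was higher in circSOD2-sh, from very low counts. It had 1, 0, 0 and 4 counts in NC and 9, 164, 7 and 7 counts in circSOD2-sh. In normalized CPM these were 0.153, 0, 0 and 0.898 in NC and 1.53, 28.9, 1.40 and 1.24 in circSOD2-sh. The groups did not overlap, and 164 of the 187 circSOD2-sh counts came from circSOD2-sh replicate 2. In NC only replicate 4 was above the floor of 3 counts. The mean was 0.263 ± 0.43 in NC and 8.28 ± 13.8 in circSOD2-sh (SD, n = 4 each). On log2(normalized CPM + 1) the means differed by 1.89 (exact two-sided permutation p = 0.0286, the smallest that 4 against 4 can give).

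miR-204-5p did not pass the low-count filter with all libraries. Without that filter its log2 fold change was 5.06 with a standard error of 0.98 (edgeR, adjusted p = 0.000229), in a fit where 655 of 3112 miRNAs (21.0%) were called and 362 (11.6%) were higher. The ratio of summed rates was 39.4, with an exact 95% interval of 16.6 to 123, from 5 against 187 counts. Without circSOD2-sh replicate 2 it was 6.51 (2.42 to 21.9), from 5 against 23 counts. Without both named libraries it was 26.3 (4.28 to 1080), from 1 against 23 counts. These intervals cover counting error only. The remaining circSOD2-sh libraries were close together at 1.39 ± 0.143 normalized CPM against 0.0511 ± 0.0885 in NC (SD, n = 3 each). Fitted fold changes against the near-zero NC libraries depend on the prior count. In fits without circSOD2-sh replicate 2, miR-204-5p passed the filter only through the circSOD2-sh libraries, so no p-value is given for these. With library totals the ratios were 76.9, 12.9 and 51.8, in the same direction.

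In circSOD2-sh replicate 2, miR-204-5p was 20.6 times the median of the remaining circSOD2-sh libraries with TMM and 20.8 times with library totals. In the same library the sum of the neural markers was 5210 normalized CPM, and 471 to 490 in the rest of the group, with 4 of 5 above 2 times the highest library there. The stroma markers summed to 311 against 19.0 to 53.5 (5 of 7 above 2 times), the leukocyte markers to 14.8 against 2.13 to 3.21 (3 of 6) with miR-223-3p and miR-223-5p at 0 counts, and the endothelium markers to 511 against 262 to 290 (0 of 2). The p53-linked miRNAs summed to 104 against 2.04 to 3.20, with miR-34c-5p at 95.8 normalized CPM (543 counts). The part of these in the miR-204-5p value was not tested. The seed relative miR-211-5p had 1 count, in circSOD2-sh replicate 2, and miR-211-3p 1 count, in NC replicate 4. miR-204-3p was not analysed here.

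The 3p arms of miR-192, miR-194 and miR-215 were nearly absent from the counts, at 4 or fewer in every library. miR-192-3p had 1, 0, 1 and 4 counts in NC and 1, 2, 0 and 0 in circSOD2-sh. It made up 9 of the 16945 counts of both arms, or 0.0531% (95% exact Clopper-Pearson interval 0.0243% to 0.101%). miR-194-3p had 0, 1, 2 and 1 counts in NC and 3, 0, 1 and 0 in circSOD2-sh, or 8 of 1482 counts (0.54%, 0.233% to 1.06%). The miR-194-5p in this total comes from both hairpins. miR-215-3p had no counts in NC and 1, 0, 1 and 0 in circSOD2-sh, or 2 of 520 counts (0.385%, 0.0466% to 1.38%). The 5p arm thus held nearly all counts of each hairpin in both groups. A difference in arm use between the groups was not detectable at this depth.

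By level, miR-192-5p ranked 66 of 1482 known miRNAs in NC and 93 in circSOD2-sh. miR-194-5p ranked 163 and 218, miR-215-5p 255 and 294, and miR-204-5p 742 and 312. Without both named libraries the ranks were 78 and 93 for miR-192-5p, 193 and 209 for miR-194-5p, 256 and 277 for miR-215-5p, and 1108 and 485 for miR-204-5p, whose ranks thus rested largely on these libraries. The mature members have 21 to 23 bases, but ligation favours some sequences, so an order between miRNAs is approximate. In every library miR-192-5p was above miR-194-5p, and miR-194-5p above miR-215-5p. miR-204-5p was below these except in circSOD2-sh replicate 2, where it reached the level of miR-194-5p (164 and 165 counts).

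The other kidney miRNAs were called in both directions with TMM, as were the miRNAs tested as a whole. Their lists were written with earlier results of these data known. Of the 14 renal epithelium miRNAs, all tested, 5 were higher and 6 lower in circSOD2-sh and 3 did not pass the test (edgeR, adjusted p under 0.05), with a median log2 fold change of -0.15. Over all miRNAs tested 33.3% were higher and 32.4% lower. With RLE size factors or DESeq2, 8 of the 14 were called, beside 593 and 572 of all 895. It was 8 of 14 also with TMM references NC replicates 1 to 4 and circSOD2-sh replicates 2 and 3, beside 586 to 602 of all 895. With library totals 10 of the 14 were higher and 1 lower, beside 68.5% and 17.7% of all miRNAs. Without both named libraries, and with TMM, 2 were higher, 6 lower and 6 did not pass, beside 32.7% higher and 37.0% lower of all miRNAs in that fit. miR-30a-5p, the most abundant of them, was at 42000 ± 3490 normalized CPM in NC and 49900 ± 5050 in circSOD2-sh (SD, n = 4 each; edgeR, log2 fold change 0.25, adjusted p = 0.035). miR-30e-5p had a log2 fold change of 0.13 (edgeR, adjusted p = 0.276). miR-10a-5p, of the HOXB cluster, was at 14400 ± 1470 in NC and 9750 ± 1600 in circSOD2-sh with TMM (SD, n = 4 each; edgeR, log2 fold change -0.56, adjusted p = 0.00261), but its sign turned with library totals (edgeR, log2 fold change 0.40, adjusted p = 0.00536). With library totals the log2 fold changes of miR-30a-5p and miR-30e-5p were 1.21 and 1.09 (edgeR, adjusted p = 5.02e-07 and 1.61e-06).

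Of the 5 miRNAs listed for a renal carcinoma line, 2 were higher, 2 were lower and 1 did not pass the test with TMM, beside 33.3% higher and 32.4% lower of all miRNAs, and 5 were higher with library totals, beside 68.5%. Without both named libraries 1 was higher and 3 were lower with TMM, beside 32.7% and 37.0% of all miRNAs. The onco-miRNA miR-21-5p, their most abundant member, was at 133000 ± 8730 normalized CPM in NC and 131000 ± 19600 in circSOD2-sh (SD, n = 4 each; edgeR, log2 fold change -0.03, adjusted p = 0.801), and its log2 fold change was 0.93 with library totals (edgeR, adjusted p = 7.94e-06). miR-100-5p rose from 18700 ± 527 to 129000 ± 7290 (SD, n = 4 each; edgeR, log2 fold change 2.79, adjusted p = 4.49e-10), and by 3.76 on the log2 scale with library totals. Of the p53-linked list, which stands beside the members because p53 can induce both, 4 of 5 were listed and 1 was tested. This was miR-34a-5p, which fell from 16.4 ± 2.76 to 3.10 ± 1.65 normalized CPM (SD, n = 4 each; edgeR, log2 fold change -2.38, adjusted p = 8.93e-05), with -1.43 under library totals (edgeR, adjusted p = 0.000952).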

How the data were processed

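Small RNA libraries of 4 NC and 4 circSOD2-sh samples were analysed. Deposited were raw counts for each mature miRNA, not normalized by the authors, and CPM, which the authors scaled to a library total above the sum of the listed counts. The submitters' processing notes name FastQC 0.11.2, Trimmomatic 0.36, Bowtie 1.1.1 and GRCh38, without their roles. The counting tool and miRNA annotation are not given in the sources used here. A deposited table of the authors' own comparison, with fold changes and p-values, was not used.

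All miRNAs were fitted together with edgeR 4.0.16 (R 4.3.3), after filterByExpr (minimum count 10), with TMM, a prior count of 0.125 and the quasi-likelihood test with Benjamini-Hochberg adjustment (threshold 0.05). Standard errors are the absolute log2 fold change over the square root of F. DESeq2 1.42.0 and limma 3.58.1 on log2(CPM + 1) or log2(CPM + 0.1) were alternatives, where fold changes are on that scale and understate changes of low values. limma was used on miRNAs with a mean CPM of at least 1. Other alternatives were RLE, library totals, upper-quartile normalization, each library as TMM reference, other filters, known miRNAs only, a replicate block and libraries left out. Added after the data were seen were library totals and known miRNAs only without NC replicate 4 and circSOD2-sh replicate 2, known miRNAs with library totals, and single-library folds and list counts with library totals. Permutation tests, on log2(normalized CPM + 1), and tables used Python 3.11.15, scipy 1.17.1 and pandas 2.3.3. The fits were tested on simulated counts, with the same composition in both groups apart from the added changes and no raised library. That setting differs from these libraries, so it could not test the scaling between the groups.

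The members and lists were chosen with earlier results of these data known. Named miRNAs are the members, their relatives, the 3 with the most counts in the renal epithelium, renal carcinoma line and p53-linked lists, the most abundant marker of other lists, and the 5 most like miR-192-5p. miR-34a-5p and miR-34c-5p, and the markers with 0 counts, are given under the same lists. Hairpin positions come from RefSeq (GRCh38.p14), and the genes around them from GENCODE release 29 (GRCh38). Library totals were 6386872 to 9245044 in NC and 3743860 to 4208276 in circSOD2-sh, which sets a floor of 3 counts at 0.46 to 0.674 normalized CPM. No libraries were alike enough to be duplicates (chi-square over its degrees of freedom 11.4 to 162 within groups).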

Additional observations from a re-analysis of the deposited data

Results flagged for a closer look

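In 36 sets of 4 libraries (members and summed marker lists, in each group) the highest library was compared with the rest by Dixon's ratio, and 14 stood apart (at most about 1.8 of 36 independent sets would by chance). All 14 are in NC replicate 4 or circSOD2-sh replicate 2, which were named as raised when the members were chosen, and the sets share libraries, so these are descriptions and no test. NC replicate 4 stood apart for miR-192-5p, with 952 normalized CPM where the others had 334 to 360. It stood apart for miR-194-5p, at 92.3 against 27.6 to 30.1, and for miR-204-5p, at 0.898 against 0 to 0.153, the latter from 4 counts. The summed markers of stroma (758), endothelium (650), erythroid cells (172), muscle (47.4) and leukocytes (17.1) also stood apart in that library. circSOD2-sh replicate 2 stood apart for miR-204-5p, with 28.9 where the others had 1.24 to 1.53. In the same library the summed markers of neural cells (5210), endothelium (511), stroma (311), leukocytes (14.8) and the p53-linked miRNAs (104) stood apart. miR-215-5p in NC replicate 4 was higher than the other NC libraries but did not reach the critical ratio.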

How the results depend on the processing

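The sign of the 3 tested members followed the scaling when all listed miRNAs were fitted. With library totals the log2 fold changes of miR-192-5p, miR-194-5p and miR-215-5p were 0.11, 0.05 and 0.55, with upper-quartile normalization 0.03, -0.03 and 0.44, with limma on log2(CPM + 1) 0.11, 0.09 and 0.40, with limma on log2(CPM + 0.1) 0.11, 0.09 and 0.44, and with library totals without circSOD2-sh replicate 2 and NC replicate 4 they were 0.60, 0.56 and 0.80. The median of all tested miRNAs was 0.961 with library totals and 0.834 with the upper quartile, against -0.0022 with TMM, and by construction the members moved with it. miR-194-5p passed the threshold with RLE (-0.97), DESeq2 (-0.97), no low-count filter (-0.95), the TMM references NC replicates 1 to 4 (-1.0, -0.93, -0.93, -1.01) and circSOD2-sh replicates 2 and 3 (-1.05, -0.97), without the 2 named libraries (-0.52), and with known miRNAs and library totals (-1.29, where miR-215-5p at -0.78 and miR-192-5p at -1.22 passed as well). miR-192-5p did not pass with known miRNAs only (-0.83, adjusted p = 0.0749), and the cause was not tested.

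With each library left out, the log2 fold change was -1.08 to -0.40 for miR-192-5p (8 of 8 called), -1.15 to -0.34 for miR-194-5p (4 of 8, adjusted p 0.0313 to 0.0872) and -0.61 to -0.24 for miR-215-5p (1 of 8). The fit with the replicate number as a block gave -0.70 for miR-192-5p (edgeR, adjusted p = 0.0602). The replicate numbers were not taken as pairs, since same-numbered libraries deviated together with r of 0.26, -0.0994, 0.0965 and -0.174. No paired analysis of arm ratios was possible because the 3p arms had means under 10 counts, and no value of that planned test or its alternatives could be had.

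Counts of calls, 588 with 298 higher and 290 lower with TMM, were 613 higher and 158 lower with library totals, 570 and 160 with the upper quartile, 635 and 168 with limma on log2(CPM + 1), 634 and 168 with limma on log2(CPM + 0.1), and 647 and 161 with library totals without both libraries. A mean of at least 50 counts left 361 calls (149 higher), known miRNAs only 246 (123 higher, 123 lower), the same without both libraries 256 (143 higher, 113 lower), and known miRNAs with library totals 328 (93 higher), where fewer miRNAs were tested. Of the 14 renal epithelium miRNAs, 11 were called in the main fit and 8 with RLE (593 of all 895) or DESeq2 (572 of all 895). Without circSOD2-sh replicate 1 (585 of all 969) or 4 (594 of all 969), 7 of 14 were called. miR-204-5p and the 3p arms are limited by counts, with at most 4 counts per NC library.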
